A study of Arabidopsis thaliana with 36 samples.

Results

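Roots of Arabidopsis thaliana seedlings (ecotype Col-0) were compared 180 min after a move to fresh medium with 10 mM KNO3 and at 0 min, before any such move. The comparison rests on 8 of the 36 libraries of the series, chosen by their titles and batch labels: 4 at 180 min on 10 mM and 4 at 0 min, 1 of each per batch, with the batches called replicates 1 to 4. All seedlings had grown for 7 days on mesh over medium with 1 mM KNO3 at 22 °C under 16 h light and 8 h dark, and moves were made 2 h after dawn. Seedlings of the 0 min group were picked up on their mesh and returned to the plate they came from. Tissue of 2 plates was pooled for each replicate at each time, and the labels name no transgene, mutant or inhibitor. Roots at 180 min therefore differ from roots at 0 min in nitrate supply, in potassium supply, in having met a new plate and in time of day, and within this pair of groups these cannot be told apart. The 4 libraries taken at 180 min after a move to fresh 1 mM KNO3 bear on the concentration alone, and are used below for that.

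Nitrate is both a nutrient and a signal for roots. Uptake is carried out by low- and high-affinity transporters, nitrate reductase and nitrite reductase turn nitrate into ammonium, and glutamine synthetase builds ammonium into amino acids. In the nucleus NLP factors switch on uptake and reduction genes within minutes, followed by repressors of the GARP and LBD families that hold back the genes of nitrogen starvation. Roots also run a circadian clock, in which the morning repressors CCA1 and LHY keep evening genes low until their own levels fall during the day.

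Libraries were made by BrAD-seq, a digital gene expression method that reads the 3′ ends of poly-A transcripts, and the deposited values are counts of reads per gene. The 8 libraries held 1870909 to 6811924 reads, with 19828 to 21526 genes having a count, and the shallowest was replicate 1 at 0 min. Levels are given as CPM, the counts divided by TMM-scaled library size in units of 1e6 reads. Changes are log2 fold changes with an approximate SE from edgeR's quasi-likelihood fit of all 36 libraries with the batch as a block, and "rose" or "fell" means an adjusted p under 0.05 (Benjamini-Hochberg, two-sided, over 18768 genes). Within the groups, counts of the 12 library pairs differed by more than sampling noise (chi-square over its degrees of freedom 3.38 to 8.86), so every library counted as 1 sample. The labels do not say that the batches were sown separately, so the p-values describe spread among these libraries, part of which may be technical.

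Among the cell type markers tested, the only call was a phloem gene, which does not show that the others stayed level. In 6 of the 7 marker lists 0 tested members were called. These were photosynthetic shoot tissue, root hairs, endodermis, xylem, root tip and cap, and cortex with non-hair epidermis. Counts were high enough to test 8 of 11 shoot, 6 of 7 root tip and cap, and 2 of 3 cortex and non-hair epidermis markers. All members of the other lists were tested, and in the whole set no marker was at 0 reads over the 8 libraries. Summed over the list, root hair markers stood at 438 to 497 CPM at 0 min and 360 to 494 CPM at 180 min, and shoot markers at 71.6 to 96.8 CPM and 72.7 to 90.3 CPM. Endodermis markers summed to 570 to 627 CPM at 0 min and 625 to 788 CPM at 180 min, the top of the first range lying just above the bottom of the second. Of these 7 markers 6 had a positive change, none of them called. The 4 phloem markers summed to 67.3 to 77.5 CPM at 0 min and 117 to 135 CPM at 180 min. Most of that difference was SUC2 (AT1G22710), the sucrose transporter of phloem companion cells, which rose by 1.06 ± 0.13 (adjusted p = 2e-08). In bulk roots more cells of a type and more RNA per cell cannot be told apart.

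Of the 18768 genes tested, 2029 (10.8%) were called, 1233 higher (6.57%) and 796 lower (4.24%) at 180 min. At least 2-fold changes were made up of 468 genes that rose (2.49%) and 153 that fell (0.815%), so the larger changes leaned towards higher levels. The median over all genes tested was -0.00368, and 3978 genes had an unadjusted p under 0.05. The levels of the 4 and 4 libraries did not overlap in 2193 genes (11.7%). Without the batch block the fit called 1286 genes, 842 higher and 444 lower, and without replicate 4 the lower calls numbered 470.

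**Figure D1:**
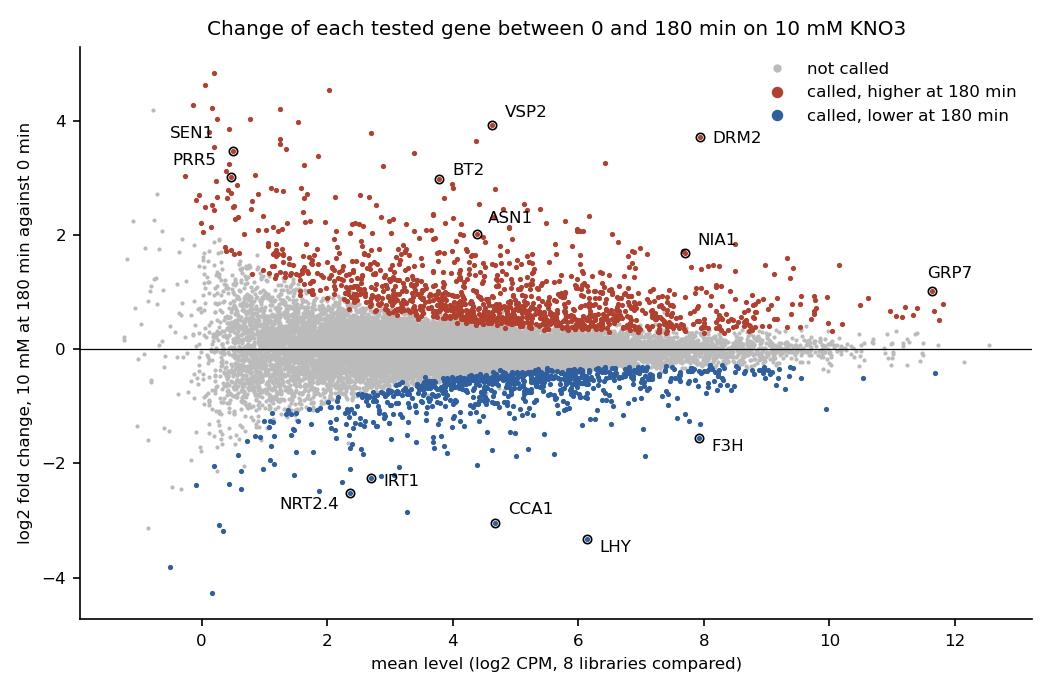
Each point is a gene, with its mean level over the 8 libraries compared on the horizontal axis (log2 CPM) and its log2 fold change between 0 min and 180 min on 10 mM KNO3 on the vertical axis. The 1233 red genes were called higher and the 796 blue genes lower. Labelled genes include DRM2 and VSP2 among those higher at 180 min and LHY and CCA1 among those lower.

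Clock genes known to peak in the morning were mostly called lower, and those of the day and evening were called only higher. Of the 13 tested genes of the morning list 9 fell and 1 rose, with a median of -0.824, and of the 13 tested genes of the day and evening list 8 rose and 0 fell, with a median of 0.584. The lower calls in the morning list numbered 8 to 9 over all the alternatives run, and the higher calls in the evening list 6 to 9. All of the groups share the same light cycle, so the 180 min between them is also 180 min of the day.

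LHY (AT1G01060), a morning MYB-like repressor, stood at 241, 247, 210 and 193 CPM at 0 min in replicates 1 to 4 and at 29.1, 19.1, 25.1 and 17 CPM at 180 min. Each library at 180 min was far below each at 0 min, and LHY fell by 3.33 ± 0.13 on the log2 scale (adjusted p = 1.99e-24), the smallest p of the comparison. Its partner CCA1 (AT2G46830) stood at 69.3, 71.3, 71.1 and 73.6 CPM at 0 min, nearly level between batches, and at 9.9, 8.77, 10.1 and 6.52 CPM at 180 min. CCA1 fell by 3.04 ± 0.15 (adjusted p = 3.28e-21). RVE8 (AT3G09600), a related MYB-like factor that activates evening genes, fell by 1.87 ± 0.14, from 54.6 to 69.9 CPM down to 14.3 to 19.5 CPM. LNK3 (AT3G12320), a coactivator working with the RVE factors, fell by 1.45 ± 0.17. The member of the morning list that rose was PRR7 (AT5G02810), a pseudo-response regulator that represses CCA1 and LHY, at 0.65 ± 0.13 (adjusted p = 0.00045).

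GRP7 (AT2G21660), an RNA-binding protein under clock control, was among the most abundant transcripts that rose. It stood at 2668, 2362, 2129 and 1844 CPM at 0 min and at 5484, 3498, 4346 and 4910 CPM at 180 min, without overlap, and rose by 1.02 ± 0.11 (adjusted p = 5.41e-10). Its paralog GRP8 (AT4G39260) rose by 0.58 ± 0.11 (adjusted p = 8.05e-05). LUX (AT3G46640), a subunit of the evening complex that represses daytime genes, stood at 23.8, 23, 21.3 and 20.2 CPM at 0 min and at 48.6, 45.8, 41 and 36.8 CPM at 180 min. LUX rose by 0.96 ± 0.13 (adjusted p = 1.2e-07), and ELF4 (AT2G40080), another subunit, rose by 0.58 ± 0.14 (adjusted p = 0.00278, and 0.0683 without all libraries of replicate 4). TOC1 (AT5G61380), a pseudo-response regulator of the evening, rose by 0.74 ± 0.19 (adjusted p = 0.00581). The adjusted p of TOC1 was 0.0505 when replicate 4 was left out at 0 min and 0.0954 when all libraries of replicate 4 were. PRR5 (AT5G24470), a pseudo-response regulator of the afternoon, rose from 5 reads over the 4 libraries at 0 min to 48 reads at 180 min, a change of 3.01 ± 0.67 (adjusted p = 0.0011). Its log2 fold change was 2.4 without replicate 3 at 0 min and 3.63 without all libraries of replicate 4.

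The evening element, AAAATATCT, is the short motif through which CCA1 and LHY are known to bind and hold down evening genes. It was searched on both strands in the 250 bases before the annotated start of 27443 protein-coding genes (RefSeq annotation of assembly TAIR10.1), and 648 of them (2.36%) held it. In the day and evening list 7 of 14 promoters (50%) held it, and in the morning list 1 of 14 (7.14%). It was found before 75 of 1220 genes called higher (6.15%) and 14 of 789 called lower (1.77%). The G-box, CACGTG, a motif shared by bHLH and bZIP factors, was found in 6.49% of all promoters, in 9.75% of those called higher, in 10.1% of those called lower, and in 7 of 14 promoters of the morning list (50%) against 2 of 14 of the day and evening list (14.3%). The promoters of 4 evening genes that rose are printed because their windows hold that motif, in capitals as AAAATATCT or, read from the other strand, AGATATTTT. They are written 5′ to 3′ on the strand of the gene.
GRP7: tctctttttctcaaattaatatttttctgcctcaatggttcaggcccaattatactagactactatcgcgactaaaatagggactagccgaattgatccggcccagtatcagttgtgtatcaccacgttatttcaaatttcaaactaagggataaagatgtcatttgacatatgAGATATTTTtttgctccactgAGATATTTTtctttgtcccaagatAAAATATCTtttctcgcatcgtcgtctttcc
LUX: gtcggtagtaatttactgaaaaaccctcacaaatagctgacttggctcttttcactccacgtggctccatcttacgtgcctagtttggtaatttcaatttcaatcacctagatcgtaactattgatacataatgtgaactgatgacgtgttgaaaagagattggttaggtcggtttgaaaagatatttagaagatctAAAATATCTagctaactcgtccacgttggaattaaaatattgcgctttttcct
PRR5: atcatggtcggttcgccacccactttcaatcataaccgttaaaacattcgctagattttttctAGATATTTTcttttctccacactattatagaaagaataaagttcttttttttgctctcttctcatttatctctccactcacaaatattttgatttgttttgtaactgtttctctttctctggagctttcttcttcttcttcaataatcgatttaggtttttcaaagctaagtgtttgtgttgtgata
TOC1: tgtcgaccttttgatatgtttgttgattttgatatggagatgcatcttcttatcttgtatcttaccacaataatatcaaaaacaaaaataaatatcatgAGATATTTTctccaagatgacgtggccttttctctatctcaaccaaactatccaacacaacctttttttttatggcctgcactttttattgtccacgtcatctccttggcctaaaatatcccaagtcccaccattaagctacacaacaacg
The GRP7 window, on the minus strand of chr2:9266558-9266807, holds 3 matches, the last ending 22 bases before the annotated start. The other windows printed hold 1 match each. That of ELF4, which also rose, holds 0 and is not printed. LUX is on the plus strand (chr3:17182792-17183041), with the match ending 44 bases before the start. PRR5 is on the minus strand (chr5:8358547-8358796), with the match ending 178 bases before the start, and TOC1 on the plus strand (chr5:24674713-24674962), 142 bases before it. A match is a string of letters in a window and does not show that a factor binds there.

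Most genes of the nitrate reduction list rose. Of the 11 tested members of the nitrate reduction and reducing power list 8 rose and 0 fell, with a median of 0.535. The higher calls numbered 6 to 9 over the alternatives run. NIA1 (AT1G77760), a nitrate reductase, stood at 117, 113, 134 and 103 CPM at 0 min and at 557, 294, 371 and 313 CPM at 180 min, highest in replicate 1 and without overlap. NIA1 rose by 1.68 ± 0.16 (adjusted p = 2.27e-11). Its paralog NIA2 (AT1G37130) did not pass the test, at 0.0016 ± 0.12 (adjusted p = 0.996), and its sign turned in 9 of 17 alternatives. NIR1 (AT2G15620), nitrite reductase, stood at 291, 417, 594 and 423 CPM at 0 min, a wide spread, and at 895, 714, 879 and 718 CPM at 180 min, all above it. NIR1 rose by 0.91 ± 0.13 (adjusted p = 7.62e-07). Genes that supply electrons and NADPH for the reduction also rose, among them FD3 (AT2G27510), a root ferredoxin, by 0.67 ± 0.13, and AT1G64190, a 6-phosphogluconate dehydrogenase family gene, by 0.68 ± 0.11.

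Nitrate transporters moved in both directions. Of 14 tested, 4 rose and 3 fell, with a median of -0.0418. NPF6.3 (AT1G12110), the dual-affinity transporter that also senses nitrate, stood at 186, 166, 176 and 138 CPM at 0 min and at 311, 362, 348 and 290 CPM at 180 min, and rose by 0.98 ± 0.11 (adjusted p = 4.82e-09). CLCA (AT5G40890), which loads nitrate into the vacuole, rose by 0.79 ± 0.14 (adjusted p = 4.93e-05). NRT2.1 (AT1G08090), the main high-affinity uptake transporter of roots, stood at 374, 330, 402 and 370 CPM at 0 min and at 603, 513, 579 and 478 CPM at 180 min, and rose by 0.55 ± 0.15 (adjusted p = 0.0125). Its adjusted p was 0.0573 without the block, 0.0552 without replicate 3 at 180 min, 0.0724 without replicate 2 at 0 min, and 0.0562 and 0.0843 without the libraries of replicates 1 and 2. NRT3.1 (AT5G50200), the partner protein NRT2.1 needs, rose by 0.52 ± 0.16 (adjusted p = 0.0274). Its adjusted p was 0.12 without the block, 0.125 and 0.109 without replicates 3 and 4 at 180 min, 0.146 without replicate 1 at 0 min, and 0.108 and 0.19 without the libraries of replicates 1 and 3. The higher calls numbered 2 without the block, without replicate 3 at 180 min and without all libraries of replicate 1.

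Among the transporters that fell were high-affinity ones known from nitrogen-starved roots. NRT2.4 (AT5G60770) stood at 8.28, 12.8, 11.8 and 11.4 CPM at 0 min and at 1.8, 2.28, 1.45 and 2.23 CPM at 180 min, and fell by 2.51 ± 0.27 (adjusted p = 5.41e-10). NRT2.5 (AT1G12940) had 43 reads over the 4 libraries at 0 min and 2 reads over the 4 at 180 min. The ratio of its summed reads per total was 25.1-fold lower at 180 min, with an exact 95% interval of 6.54 to 214 that covers counting error only, and 15.1-fold lower (3.78 to 132) without both libraries of replicate 4. In the fit NRT2.5 was called (adjusted p = 5.29e-05). NPF7.3 (AT1G32450), which loads nitrate into the xylem, fell by 0.34 ± 0.11 (adjusted p = 0.0443) with overlapping groups. That call was lost in 12 of 17 alternatives, with an adjusted p of 0.441 without the block. Leaving out any library at 0 min, replicate 1, 2 or 4 at 180 min, or all libraries of replicate 1, 2 or 4 also ended it, with adjusted p up to 0.307 (replicate 1).

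**Figure D2:**
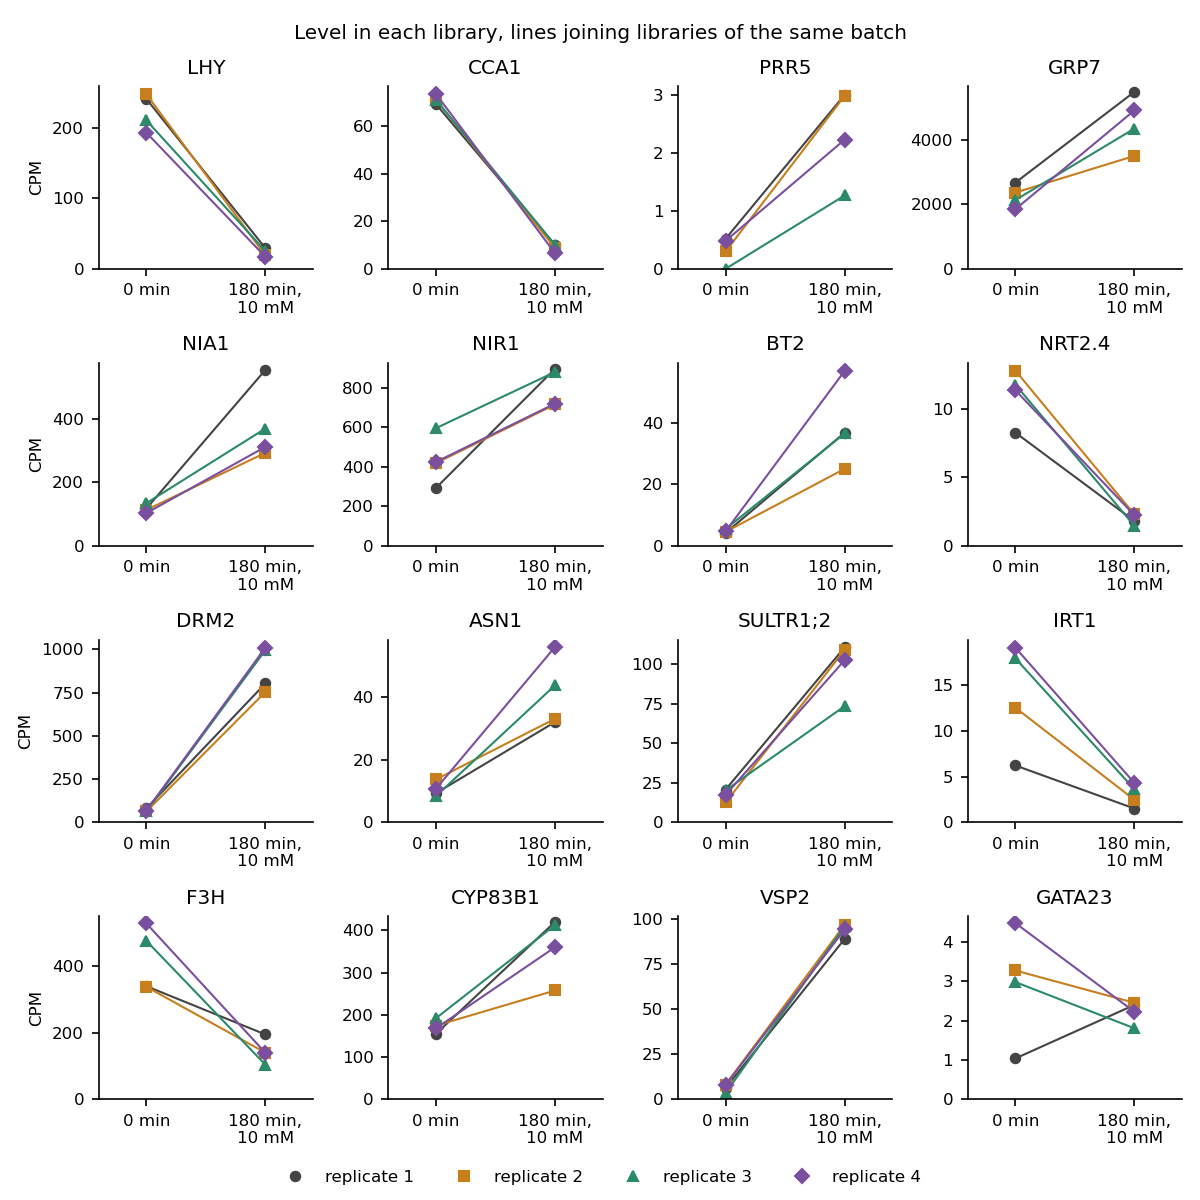
Level of 16 genes in each of the 8 libraries, in CPM on axes that start at 0, with a marker and colour per replicate and lines joining the 0 min and 180 min libraries of the same batch. Every line falls for LHY, CCA1, NRT2.4, IRT1 and F3H, every line rises for the genes from PRR5 to BT2 and for DRM2, ASN1, SULTR1;2, CYP83B1 and VSP2, and the lines of GATA23 cross.

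Of the 23 regulators of the nitrate response tested, 14 rose and 1 fell, with a median of 0.643. BT2 (AT3G48360), a BTB and TAZ domain scaffold protein, stood at 4.14, 4.47, 5.4 and 4.65 CPM at 0 min and at 36.9, 25.1, 36.7 and 57.1 CPM at 180 min. BT2 rose by 2.98 ± 0.29 (adjusted p = 3.16e-11) and its paralog BT1 (AT5G63160) by 2.46 ± 0.21. LBD38 (AT3G49940), an LBD repressor of nitrogen-responsive genes, stood at 16, 22.7, 31.3 and 30 CPM at 0 min and at 146, 117, 102 and 133 CPM at 180 min, and rose by 2.24 ± 0.17 (adjusted p = 1.62e-14). LBD37 (AT5G67420), of the same family, rose by 0.99 ± 0.12, from 71 to 82.8 CPM up to 138 to 163 CPM. HRS1 (AT1G13300), a GARP repressor of starvation genes, rose by 1.12 ± 0.14 (adjusted p = 5.68e-08). The member that fell was ANR1 (AT2G14210), a MADS-box factor of lateral root growth in nitrate, at 1.6 to 2.84 CPM at 0 min and 0.318 to 0.6 CPM at 180 min. ANR1 fell by 2.14 ± 0.53 (adjusted p = 0.00331), and its counts were too low to be tested without all libraries of replicate 3 or when only the groups compared were fitted.

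Genes that handle ammonium and amides were split. In the assimilation list 5 of 13 rose and 3 fell, with a median of -0.0795. ASN1 (AT3G47340), an asparagine synthetase that is also dark-inducible, stood at 9.32, 13.7, 8.39 and 10.8 CPM at 0 min and at 32.1, 33.2, 43.9 and 56.2 CPM at 180 min, and rose by 2.03 ± 0.23 (adjusted p = 1.57e-09). The glutamate dehydrogenase genes moved apart. GDH1 (AT5G18170) rose by 1.27 ± 0.13 and GDH2 (AT5G07440) by 1.18 ± 0.14, while GDH3 (AT3G03910) fell by 1.26 ± 0.19, from 23.3 to 29.4 CPM down to 9.21 to 13.5 CPM. Of 4 ammonium transporters tested 1 rose and 1 fell. AMT1;1 (AT4G13510), a high-affinity root uptake protein, fell by 0.55 ± 0.12 (adjusted p = 0.000596). AMT2;1 (AT2G38290) rose by 0.46 ± 0.14 (adjusted p = 0.0215). That call was lost in 7 of 17 alternatives, without the block (adjusted p = 0.105), with only the groups compared (0.0653), without replicate 1 or 2 at 180 min (0.0522 and 0.18), without replicate 1 at 0 min (0.0731), and without all libraries of replicate 1 or 2 (0.124 and 0.244).

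Most transcripts known from carbon-starved or darkened tissue rose. Of 14 tested, 12 rose and 0 fell, with a median of 1.35. The count was 10 to 12 over the alternatives run. DRM2 (AT2G33830), annotated as a dormancy and auxin associated family protein, stood at 79.7, 62.3, 62.9 and 67.1 CPM at 0 min and at 803, 754, 996 and 1010 CPM at 180 min. DRM2 rose by 3.72 ± 0.21 (adjusted p = 5.59e-19). DIN10 (AT5G20250), a raffinose synthase family gene, stood at 15, 15.8, 15.9 and 11.6 CPM at 0 min and at 71.1, 78.2, 113 and 74.1 CPM at 180 min, and rose by 2.55 ± 0.15. MIOX2 (AT2G19800), a myo-inositol oxygenase, rose by 2.09 ± 0.19, and SEN1 (AT4G35770), a dark-inducible senescence gene, by 3.48 ± 0.79, from 5 reads over the 4 libraries to 66. Of the 9 C and S1 group bZIP factors, which act downstream of the energy-sensing kinase SnRK1, 3 rose and 1 fell. BZIP1 (AT5G49450) stood at 0.518, 0.298, 0.995 and 0.963 CPM at 0 min and at 4.2, 4.74, 6.5 and 5.73 CPM at 180 min, a rise of 2.77 ± 0.44 (adjusted p = 6.26e-06). BZIP63 (AT5G28770) rose by 1.67 ± 0.16 (adjusted p = 3.47e-11). BZIP53 (AT3G62420) rose by 0.41 ± 0.11, a call lost without the libraries of replicate 1 or of replicate 3 (adjusted p = 0.0706 in each case).

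**Figure D3:**
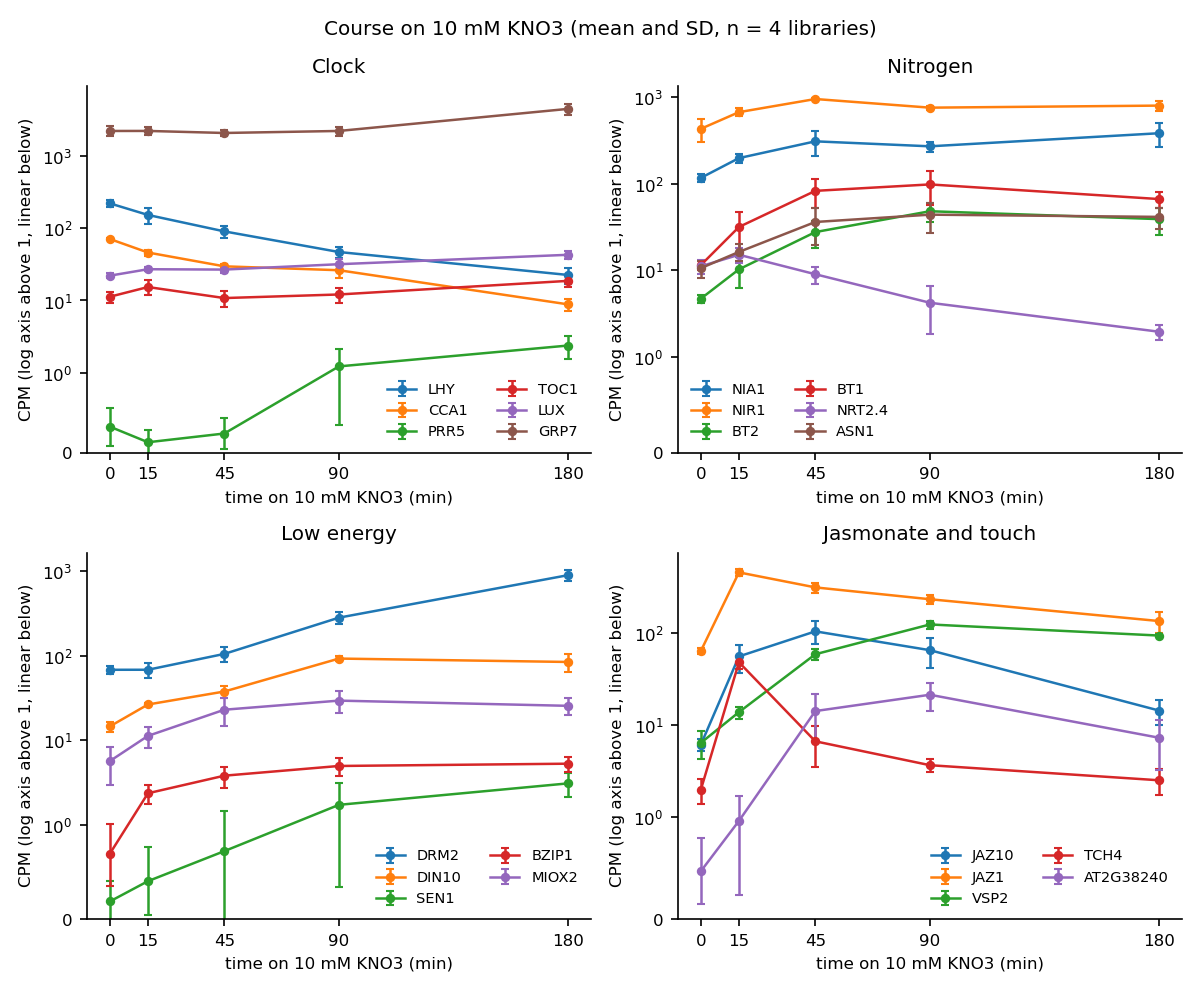
Mean level and SD (n = 4 libraries) of selected genes at 0 min and at 15, 45, 90 and 180 min on 10 mM KNO3, in CPM on an axis that is logarithmic above 1 and linear from 0 to 1, with error bars cut at 0. LHY and CCA1 fall at each step, GRP7 stays at 2111 to 2254 CPM until 90 min and reaches 4560 CPM at 180 min, NIR1 peaks at 45 min, and TCH4 and JAZ1 peak at 15 min.

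The path to 180 min differed between genes. GRP7 stood at 2251 CPM on average at 0 min, 2252 ± 309.9 CPM (SD) at 90 min on 10 mM and 4560 ± 846 CPM at 180 min. Against 90 min GRP7 rose by 1.02 ± 0.11 (adjusted p = 6.22e-09) and DRM2 by 1.65 ± 0.18 (adjusted p = 1.51e-08), while LHY fell by 1.07 ± 0.14 and CCA1 by 1.58 ± 0.15. DRM2 was not typical of the low energy list, in which 3 of 14 rose and 0 fell over that step, with a median of 0.0799. In the day and evening clock list 5 of 13 rose and 0 fell, with a median of 0.512. Named genes of the nitrate response differed less between those times. NIR1 differed from 90 min by 0.07 ± 0.13, BT2 by -0.28 ± 0.21 and LBD38 by 0.07 ± 0.15, all short of the threshold, and NIA1 by 0.47 ± 0.15 (adjusted p = 0.0894). Over all genes 565 (3.01%) were called between 90 and 180 min, 275 higher (1.47%) and 290 lower (1.55%), with 188 calls without the block. Without all libraries of replicate 2 or of replicate 3 the calls numbered 306 and 235. The higher calls also fell to 177 without replicate 4 at 180 min, and to 168 and 143 without replicates 2 and 3 at 90 min.

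Genes of jasmonate, the wound hormone, were called in part. In the jasmonate synthesis and response list 7 of 18 rose and 0 fell, with a median of 0.402, but 12 of the 18 were lower than at 90 min and 0 higher, with a median of -0.82 for that step. The count of 7 was 2 without the block and 4 with only the groups compared. It was 3 without replicate 2 at 180 min or without replicate 3 at 0 min and 4 without replicate 4 at 0 min. Leaving out all libraries of replicates 2, 3 and 4 in turn gave 3, 4 and 2. JAZ1 (AT1G19180), a repressor of jasmonate responses that is itself induced by jasmonate, stood at 60.6, 66.8, 58.4 and 68.8 CPM at 0 min and at 181, 96.5, 126 and 139 CPM at 180 min, and rose by 1.05 ± 0.12 (adjusted p = 1.49e-09). JAZ10 (AT5G13220), another repressor, stood at 6.73, 6.86, 4.98 and 5.78 CPM at 0 min and at 20.7, 11.2, 13.2 and 12.4 CPM at 180 min, and rose by 1.24 ± 0.25 (adjusted p = 0.000249). At 45 min on 10 mM its level was 104.6 ± 29.3 CPM, and against 90 min it fell by 2.17 ± 0.19 (adjusted p = 1.83e-11).

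In the list of jasmonate breakdown 4 of 5 rose and 0 fell against 0 min, with a median of 1.34. Against 90 min 2 of the 5 were lower and 0 higher, with a median of -0.447. AT2G38240, a 2-oxoglutarate-dependent oxygenase, had 0 to 0.711 CPM at 0 min and 11.7, 3.16, 4.7 and 9.55 CPM at 180 min, and rose by 3.68 ± 0.51 (adjusted p = 3.33e-07). AT5G05600, of the same enzyme family, rose by 1.34 ± 0.17 (adjusted p = 3.6e-08), from 18.1 to 27.7 CPM up to 53.9 to 68.4 CPM. Of 21 touch and wound genes 2 were higher and 1 lower, shares near the 6.57% and 4.24% of all genes tested. The higher calls were 4 with no filter on low counts and 1 with only the groups compared, without replicate 1 or 2 in either group, or without all libraries of either replicate. The lower call was absent without the block, without replicate 3 or 4 in either group, and without all libraries of either replicate. There were 2 without replicate 1 at 180 min or without all libraries of replicate 1. TCH4 (AT5G57560), a touch-induced cell wall enzyme, stood at 1.14 to 2.57 CPM at 0 min, 48.2 ± 7.76 CPM (SD) at 15 min on 10 mM, and 1.59 to 3.51 CPM at 180 min. Its change over the 180 min was 0.42 ± 0.44 (adjusted p = 0.681), with overlapping groups.

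Cytokinin synthesis genes were among those called. CYP735A2 (AT1G67110), which makes the trans-zeatin forms that travel to the shoot, stood at 10.9, 5.96, 5.97 and 4.17 CPM at 0 min and at 30, 22.8, 24.7 and 19.4 CPM at 180 min, and rose by 1.94 ± 0.21 (adjusted p = 7.12e-10). IPT3 (AT3G63110), an isopentenyltransferase known to respond to nitrate, rose by 1.31 ± 0.34 (adjusted p = 0.00553, and 0.0637 without replicate 4 at 180 min). These were the 2 members of 9 tested that were called. Type-A response regulators, the early targets of cytokinin, moved both ways, 2 of 10 higher and 1 lower. ARR7 (AT1G19050) rose by 0.95 ± 0.17 (adjusted p = 4.52e-05). ARR3 (AT1G59940) stood at 58.5, 57.3, 107 and 110 CPM at 0 min and at 36.6, 39.1, 54.4 and 55.7 CPM at 180 min, and fell by 0.81 ± 0.13 (adjusted p = 7.51e-06). Its libraries of replicates 1 and 2 lay below those of replicates 3 and 4 in each group, and without the block its adjusted p was 0.0592.

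Auxin and lateral root genes were called in both directions, in shares no lower than the 10.8% of all genes tested. Of 15 auxin transport and perception genes 2 rose and 1 fell, the higher calls being 1 without the block and 0 in some leave-outs. Of 9 auxin synthesis, conjugation and oxidation genes 1 was called in each direction, and each of these calls was absent in some leave-outs. Of the 25 Aux/IAA repressors, which block auxin response factors, 2 rose and 1 fell, a share near the background. IAA2 (AT3G23030) rose by 0.64 ± 0.14 (adjusted p = 0.000979). IAA12 (AT1G04550) fell by 0.49 ± 0.12 (adjusted p = 0.0019, and 0.0504 without all libraries of replicate 3). PIN5 (AT5G16530), an auxin transporter of the endoplasmic reticulum, fell by 0.72 ± 0.17 (adjusted p = 0.00293), although it rose by 1.01 ± 0.20 between 90 and 180 min. In the list of lateral root initiation 1 of 13 rose and 1 fell, with a median of 0.0683. EXPA1 (AT1G69530), an expansin that loosens cell walls, rose by 0.65 ± 0.15 (adjusted p = 0.00179). RALFL34 (AT5G67070), a signalling peptide, fell by 0.52 ± 0.12 (adjusted p = 0.00217, and 0.0533 without all libraries of replicate 2).

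The transcription factors that start lateral roots, and the Aux/IAA repressor IAA14, did not pass the test. GATA23 (AT5G26930), which marks founder cells, stood at 1.03, 3.28, 2.99 and 4.49 CPM at 0 min and at 2.4, 2.46, 1.81 and 2.23 CPM at 180 min, a change of -0.52 ± 0.42. LBD16 (AT2G42430) changed by 0.36 ± 0.23, LBD29 (AT3G58190) by -0.13 ± 0.42, ARF7 (AT5G20730) by 0.13 ± 0.19, ARF19 (AT1G19220) by -0.10 ± 0.22 and IAA14 (AT4G14550) by -0.19 ± 0.23. The groups overlapped in all of these, and adjusted p ran from 0.408 to 0.921. GATA23, LBD16 and LBD29 were at few reads in whole roots, so changes of modest size were not detectable at this depth. In the cell cycle list 1 of 16 was called, beside 10.8% of all genes tested. It was CYCD3;1 (AT4G34160), a D-type cyclin of cell division, which fell by 0.89 ± 0.18 (adjusted p = 0.00035), from 52.3, 41.8, 20.9 and 22.1 CPM to 17.1, 20.9, 14.6 and 15 CPM. Of 7 ribosome biogenesis genes 0 were called by edgeR's test, as 0 were by DESeq2, and 1 was without replicate 2 at 180 min.

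Genes for other nutrients were also called. SULTR1;2 (AT1G78000), the main sulfate uptake transporter of roots, stood at 20.7, 12.5, 20.2 and 17.3 CPM at 0 min and at 111, 109, 73.5 and 103 CPM at 180 min, and rose by 2.45 ± 0.15 (adjusted p = 5.3e-17). It had passed a higher point, 197 ± 41.5 CPM (SD) at 90 min on 10 mM, from which it fell by 0.99 ± 0.13. SDI1 (AT5G48850), a marker of sulfur deficiency, fell by 0.71 ± 0.17 (adjusted p = 0.00216). In the sulfate list 3 of 10 rose and 1 fell. In the iron list 1 of 9 rose and 3 fell. IRT1 (AT4G19690), the root iron transporter, stood at 6.21, 12.5, 17.9 and 19.1 CPM at 0 min and at 1.5, 2.46, 3.61 and 4.3 CPM at 180 min, and fell by 2.25 ± 0.29 (adjusted p = 5.84e-08). FRO2 (AT1G01580), the ferric reductase that works with it, fell by 1.73 ± 0.26 and FER1 (AT5G01600), an iron-storing ferritin, by 0.90 ± 0.13. FRU (AT2G28160), the bHLH factor also called FIT that activates IRT1 and FRO2, rose by 0.62 ± 0.16 (adjusted p = 0.00606, and 0.0653 without all libraries of replicate 1). Of 8 potassium transport genes 1 was called in each direction, and of 12 phosphate genes 1 in each direction, beside 6.57% higher and 4.24% lower over all genes tested. Each of these calls rests on a single gene and was absent in some leave-outs. Without the block only the higher potassium call remained.

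Most genes of the flavonoid list fell and most of the indole glucosinolate list rose. In the phenylpropanoid and flavonoid list 8 of 10 fell and 1 rose, with a median of -0.685. The mean difference over the list was -0.0628, -0.48, -1.03 and -1.04 (log2) in replicates 1 to 4, so replicate 1 was almost level. The higher call was absent without the block, without replicate 1 in either group and without all libraries of replicate 1. F3H (AT3G51240), flavanone 3-hydroxylase, stood at 341, 339, 478 and 530 CPM at 0 min and at 195, 140, 104 and 139 CPM at 180 min, and fell by 1.56 ± 0.14 (adjusted p = 7.12e-12). FLS1 (AT5G08640), flavonol synthase, fell by 1.31 ± 0.17, from 271 to 531 CPM down to 104 to 215 CPM. CHI (AT3G55120), chalcone isomerase, fell by 1.06 ± 0.20 although its groups overlapped, at 50.7, 60.5, 92.3 and 124 CPM against 42.3, 55.3, 23.3 and 40.6 CPM. In the indole glucosinolate list, the tryptophan-derived defence compounds of this plant family, 9 of 11 rose and 0 fell, with a median of 0.751. The mean difference over that list was 1.28, 0.524, 0.338 and 0.534 (log2) in replicates 1 to 4, so it was largest in replicate 1. CYP79B3 (AT2G22330), which opens the pathway, rose by 1.3 ± 0.13 (adjusted p = 1.94e-10). CYP83B1 (AT4G31500), the next enzyme, stood at 155, 174, 192 and 168 CPM at 0 min and at 420, 258, 413 and 360 CPM at 180 min, and rose by 1.07 ± 0.13. CYP81F4 (AT4G37410), which modifies the product, rose by 0.94 ± 0.11. MYB34 (AT5G60890), an activator of the pathway, rose by 0.84 ± 0.11 (adjusted p = 2.14e-07, and 0.0704 without the block).

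Of 19 aquaporins, which are water channels, 6 fell and 0 rose, with a median of -0.294. The count was 4 without the block and 3 without all libraries of replicate 2. TIP2;3 (AT5G47450), a channel of the vacuole membrane, fell by 0.73 ± 0.15 (adjusted p = 0.000239), from 208 to 232 CPM down to 115 to 150 CPM. PIP1;2 (AT2G45960), a plasma membrane channel, fell by 0.51 ± 0.10 (adjusted p = 0.000129), from 1581 to 1960 CPM down to 1080 to 1344 CPM.

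Stress genes were called in both directions. Of 10 low oxygen genes 4 rose and 0 fell, 2 without the block. ADH1 (AT1G77120), alcohol dehydrogenase, rose by 1.68 ± 0.29 (adjusted p = 2.07e-05) and HRE1 (AT1G72360), an ethylene response factor of hypoxia, by 1.13 ± 0.16 (adjusted p = 7.53e-07). Of 12 abscisic acid genes 2 rose and 1 fell. RD29A (AT5G52310), a gene of drought and cold, stood at 5.69, 13.4, 11.5 and 14.1 CPM at 0 min and at 52.2, 47.2, 69.2 and 64.1 CPM at 180 min, and rose by 2.32 ± 0.26 (adjusted p = 2.1e-09), while ABF3 (AT4G34000), a bZIP factor of that hormone, fell by 0.57 ± 0.11. Of 9 heat shock genes 3 rose and 1 fell. DREB2A (AT5G05410), a factor of heat and drought responses, rose by 1.47 ± 0.21. HSP70 (AT3G12580), a chaperone, stood at 225, 243, 104 and 97.1 CPM at 0 min and at 87.9, 77.7, 71.7 and 50.4 CPM at 180 min, and fell by 1.15 ± 0.20 (adjusted p = 2.93e-05). In the short lists of class III glutaredoxins and EXORDIUM growth genes 4 of 8 and 3 of 5 rose. With only the groups compared the first count was 1. The second was 1 without the block, without replicate 1 or replicate 4 at 0 min, and without all libraries of either replicate.

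**Figure D4:**
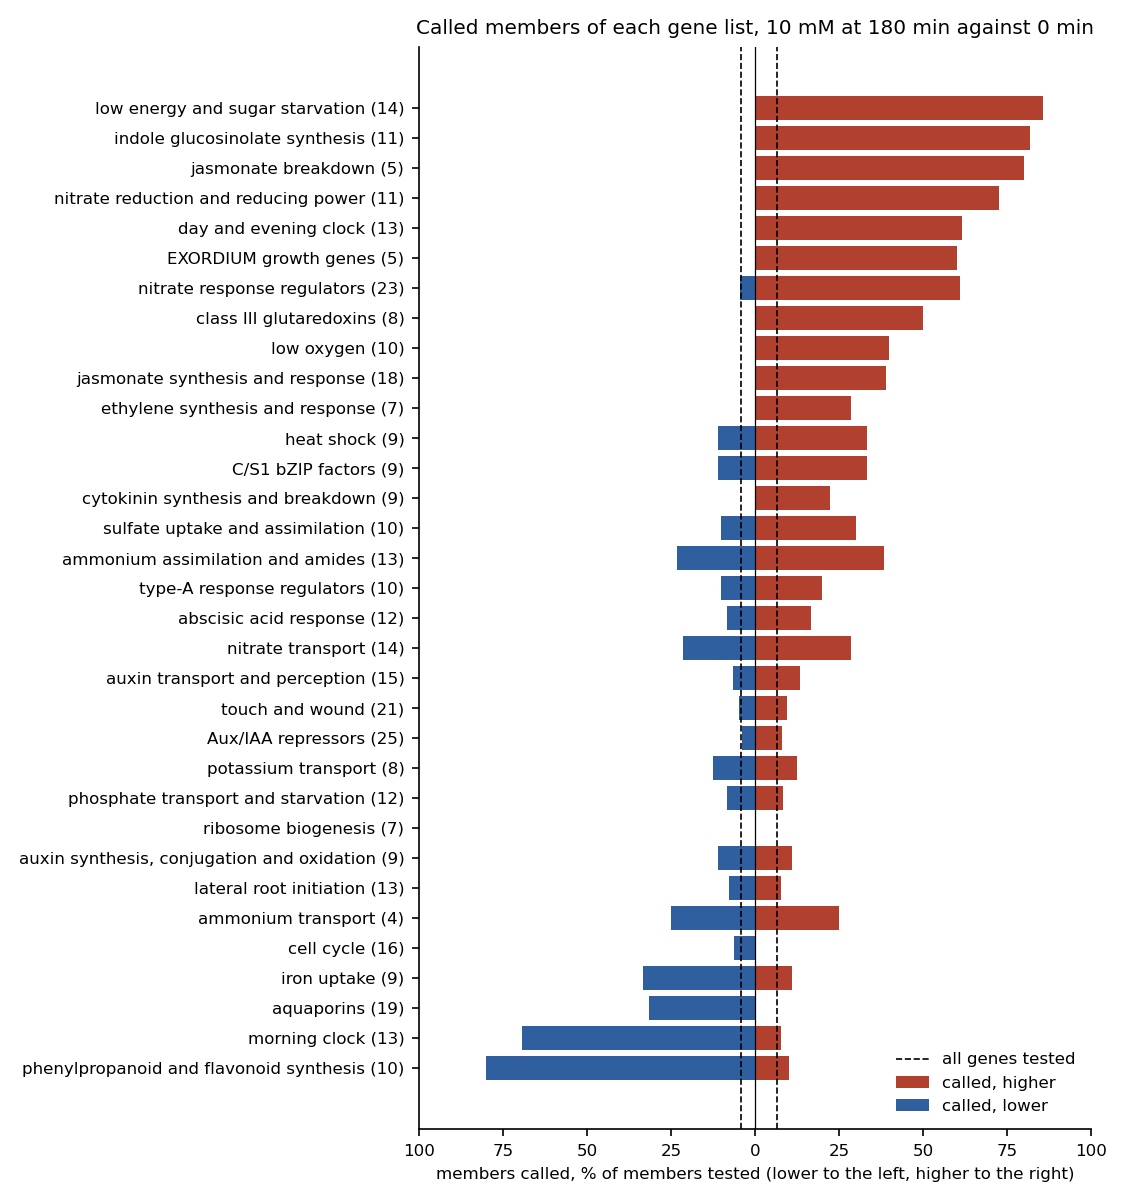
Members called in each of the 33 pathway lists, as a percentage of members tested (number in brackets), with lower calls to the left and higher calls to the right. Dashed lines mark the shares over all genes tested, 6.57% higher and 4.24% lower. The low energy list has 12 of 14 members called higher, and the flavonoid list 8 of 10 called lower.

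The largest changes in the whole table fell partly outside these lists. Among genes that averaged 1 log2 CPM or more over the 8 libraries and moved 1 way in all 4 batches, the greatest rise was that of scpl30 (AT4G15100), a serine carboxypeptidase-like gene. It stood at 0, 1.79, 0.711 and 0.321 CPM at 0 min and at 22.2, 14.7, 15.3 and 17 CPM at 180 min, and rose by 4.54 ± 0.38 (adjusted p = 8.76e-13), or by 5.13 without replicate 2 at 0 min and 5.20 without all libraries of replicate 2. VSP2 (AT5G24770), a vegetative storage protein induced by jasmonate, stood at 6.21, 8.05, 3.41 and 7.86 CPM at 0 min and at 89.1, 97, 96.1 and 94.3 CPM at 180 min, and rose by 3.93 ± 0.19 (adjusted p = 7.09e-21). BGLU24 (AT5G28510), a beta-glucosidase, rose by 3.65 ± 0.27, from 2.59 to 8.65 CPM up to 50.9 to 102 CPM. AT4G21870, an HSP20-like chaperone gene, rose by 3.78 ± 0.39, AT2G15880, a leucine-rich repeat gene, by 4.21 ± 0.47, and AT2G15780, a cupredoxin gene, by 3.98 ± 0.49. On the side of lower levels, LHY and CCA1 were followed by AT1G64500, a glutaredoxin family gene, which fell by 2.85 ± 0.24, from 22.3 to 27.1 CPM down to 2.1 to 5.26 CPM. AT2G36630, a sulfite exporter family gene, fell by 2.48 ± 0.36, and AT1G07500, annotated only as an uncharacterized protein, by 2.23 ± 0.26.

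Whether levels at 180 min differed with the concentration was tested against the 4 libraries moved to fresh 1 mM KNO3 and taken at the same time. Of the 18768 genes 0 (0%) were called by edgeR and 0 by DESeq2. In edgeR's test 729 (3.88%) had an unadjusted p under 0.05, a share no larger than that threshold gives by chance. With no filter on low counts edgeR called 3 genes, 1 higher and 2 lower, and with only the groups compared 1, which was lower. The 1 mM comparison with 0 min shares its 0 min libraries with the one described here, so their likeness is partly built in and the values are only given side by side. On 1 mM 2287 genes were called (12.2%), 1336 higher (7.12%) and 951 lower (5.07%). LHY fell by 3.44 ± 0.14, CCA1 by 2.99 ± 0.15 and DRM2 rose by 3.82 ± 0.21 there, against -3.33, -3.04 and 3.72 on 10 mM. For the difference between the media, the 95% intervals were -0.19 to 0.40 for LHY, -0.40 to 0.31 for CCA1 and -0.46 to 0.26 for DRM2.

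NIA1 had the smallest unadjusted p of the named genes for the difference between the media, and its interval below does not allow for that choice. It stood at 293, 293, 245 and 189 CPM at 180 min on 1 mM and at 557, 294, 371 and 313 CPM on 10 mM. The lowest library on 10 mM, replicate 2, was level with the highest on 1 mM. The difference was 0.59, with a 95% interval of 0.28 to 0.90 and an unadjusted p of 0.000359 (adjusted p = 1). NIA1 was called when low counts were not filtered out (adjusted p = 0.0137), and over the other alternatives its difference ran from 0.44 without replicate 1 on 10 mM to 0.76 without all libraries of replicate 2. In the nitrate reduction list 8 of 11 were called higher on 10 mM and 4 of 11 on 1 mM, with medians of 0.535 and 0.347. The median of the difference between media was 0.193, and 0 of the 11 were called for it. The gap was smaller for nitrate response regulators, 14 and 12 of 23 higher, and low energy genes, 12 and 11 of 14. Nitrate transporters had 4 higher and 3 lower on each medium. Such counts against shared 0 min libraries do not test the concentration. HRS1 differed by 0.34 (0.06 to 0.61, unadjusted p = 0.0175) and ARF7 by 0.48 (0.09 to 0.87, unadjusted p = 0.0161), neither called after adjustment. NIR1 differed by 0.19 (-0.07 to 0.45), BT2 by 0.27 (-0.17 to 0.72) and NRT2.4 by -0.43 (-1.09 to 0.24).

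**Figure D5:**
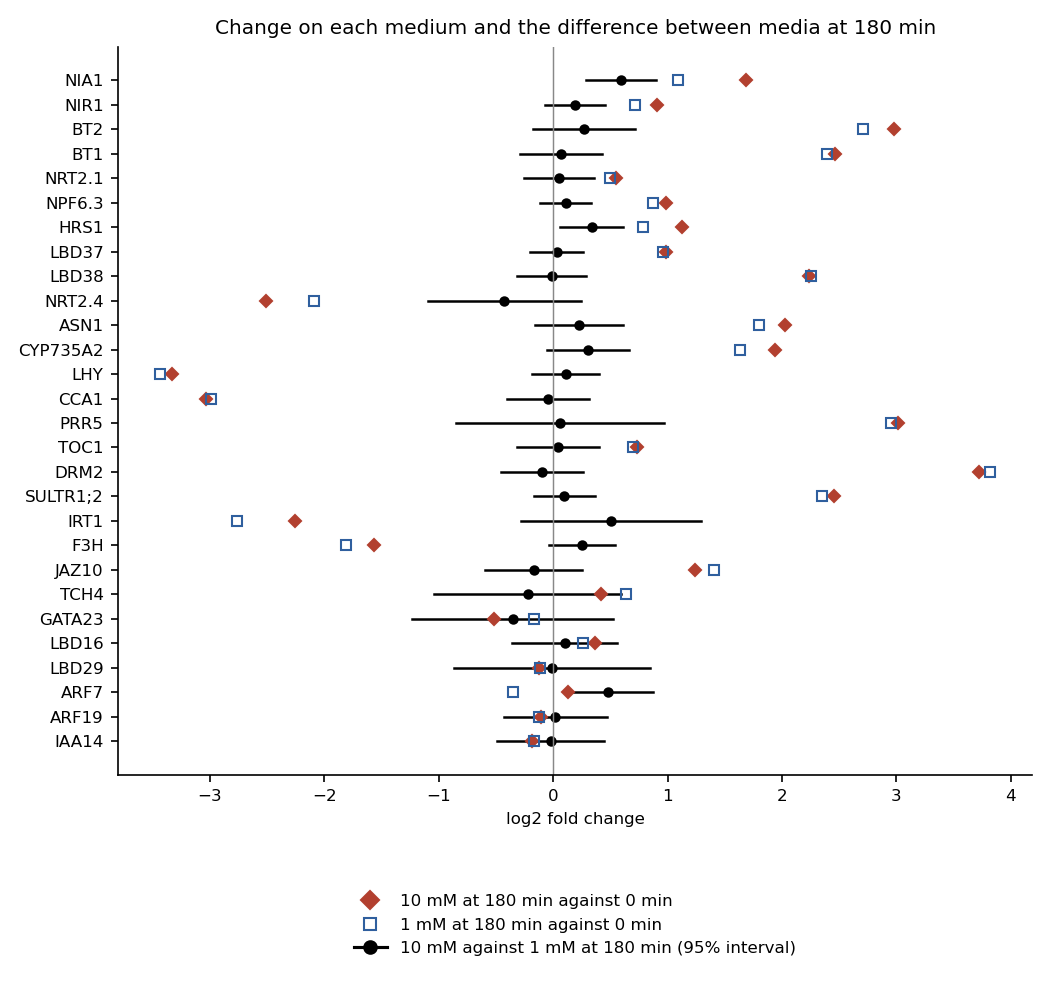
Log2 fold changes at 180 min against 0 min on 10 mM (red diamonds) and on 1 mM (open blue squares), and the difference between the media at 180 min with its 95% interval (black), for 28 genes. The diamonds and squares of LHY, CCA1, BT1, LBD38 and DRM2 nearly coincide, and the interval of NIA1, 0.28 to 0.90, lies to the right of 0. The intervals are not adjusted for the number of genes.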

How the data were processed

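Poly-A RNA of roots was counted in 36 libraries, of which 8 are compared here. The authors deposited unnormalized counts, a table of reads per gene for each library. The submitters' processing notes name genome build TAIR10 with FastQC, Bowtie2, SAMtools and HTSeq. Tool versions, gene models and strand handling were not given in the sources used here, so counts of overlapping, antisense or near-identical genes may be mixed.

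Groups and replicate numbers came from the labels, which call the number a batch, so the main fit holds the batch as a block. Libraries sharing a number deviated from their group means with correlations of 0.164, 0.000911, 0.0163 and 0.302 (replicates 1 to 4), and 2 of 4 were closest to their own batch. The test was edgeR 4.0.16 (R 4.3.3) on all 36 libraries, with TMM scaling, filterByExpr over the 9 groups, 1 coefficient per group plus batch, and Benjamini-Hochberg adjustment over 18768 genes within each comparison. No minimum fold was set. The biological coefficient of variation was 12.1%. Each SE was taken from the F statistic, as the absolute log2 fold change divided by the root of F, so it and the intervals are approximate. Intervals from reads cover counting error only, since reads without molecular identifiers are not independent molecules. The test was also checked on simulated data.

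The 33 pathway lists and 7 marker lists hold 480 members, described by counts and medians with no test of a list. In 29 members the reference gave no symbol, and these genes are printed by identifier. Members, lists and comparisons were chosen with earlier results of these data known. Genes were named by rule: the 8 largest changes each way (averaging 1 log2 CPM or more, with a single direction in the 4 batches), the 4 largest calls of each list, and 19 set by name. This gave 127 genes. PRR7, NIA2, NRT3.1, NPF7.3, ELF4 and GRP8 were added after their values were seen. The result of 1 named gene is not reported here. Of the 125 named genes called, 17 lost the call in 6 to 13 of 17 alternatives, of which NRT3.1, NPF7.3 and AMT2;1 are described by name.

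The alternatives tried were RLE scaling, dropping the count filter, DESeq2 1.42.0, dropping the block, fitting only the groups compared, and omitting single libraries or whole batches. A whole batch was all libraries of that replicate, at every time and on both media. Names and promoter sequences are from RefSeq on assembly TAIR10.1, which matched 32548 of 32833 identifiers. The count tables hold no coordinates, and the coordinates given are those of TAIR10.1.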

Additional observations from a re-analysis of the deposited data

Results flagged for a closer look

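A library was singled out where its gap to the nearest of the 3 others of its group exceeded Dixon's critical share of the group's range. This met 10 of the 264 groups examined (132 named genes, each at 0 min and at 180 min on 10 mM), and chance alone flags about 5% of groups.

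At 180 min, replicate 1 was high for HRS1, at 72.3 CPM against 60 to 61.7 CPM in the others. Replicate 4 was low at 180 min for ARF19, at 6.21 CPM against 10.1 CPM or more, for NPF7.3, at 156 CPM against 210 to 220 CPM, and for AT1G64190, at 102 CPM against 129 to 133 CPM. The same replicate was high for IAA2, at 73.5 CPM against 45 to 48.4 CPM. DIN10 was highest in replicate 3 at 180 min, at 113 CPM against 71.1 to 78.2 CPM. AMT2;1, an ammonium transporter, was high in replicate 2 at 180 min, at 37.2 CPM against 25.2 to 26.7 CPM, and low in replicate 1 at 0 min, at 14 CPM against 22.3 CPM or more. Replicate 1 at 0 min was also high for JRG21, a jasmonate-regulated gene, at 3.1 CPM against 0.711 to 0.895 CPM, and low for LBD29, at 1.03 CPM against 2.73 to 2.98 CPM. In low genes such as these a library of 1870909 reads, as replicate 1 at 0 min was, holds only a few reads.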

How the results depend on the processing

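The count of genes called for 10 mM at 180 min against 0 min was 1775 to 2176 with RLE scaling, no filter, DESeq2 or only the groups compared, and 1286 without the block (444 lower). Leaving out a library or a batch gave 1426 to 1867 calls, 940 to 1156 higher and 470 to 731 lower. For 1 mM at 180 min against 0 min the fit without the block called 1414 genes (510 lower), and leaving out a library or a batch gave 1456 to 2029, 908 to 1182 higher and 548 to 851 lower. For 180 against 90 min on 10 mM the fit without the block called 188 genes, 71 higher and 117 lower. There, leaving out a library or a batch gave 235 to 543 calls, 87 to 257 higher and 148 to 302 lower. For 10 mM against 1 mM at 180 min no filter gave 3 calls (1 higher, 2 lower), only the groups compared gave 1, lower, and every other alternative gave 0. The causes were not tested. Of the 125 named genes called, 82 kept the call wherever they were tested. The sign turned only in named genes that did not pass the test. Over the leave-outs ARF19 ran from -0.207 to 0.0123 (above 0 without replicate 4 at 180 min or without all libraries of replicate 4), LBD29 from -0.229 to 0.05 (above 0 without all libraries of replicate 2) and NIA2 from -0.148 to 0.0963. NIA2 was -0.00308 with RLE scaling, -0.00326 with DESeq2 and -0.00127 with only the groups compared. Depth limits genes of few reads, such as PRR5, SEN1 and NRT2.5, and a missed threshold there does not show that levels were alike.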
